A study of Mus musculus with 23 samples.

Results

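The genes that carry glucose into the cell, break it down to pyruvate, exchange lactate and gate the entry of pyruvate into mitochondria were followed through 23 libraries of early post-implantation mouse embryos. Their rows were taken by symbol from a table of 23723 distinct gene symbols, and 32 of 32 were found. They are the hexokinases Hk1 and Hk2, Gpi1, the phosphofructokinases Pfkl, Pfkm and Pfkp, the regulators Pfkfb1, Pfkfb2, Pfkfb3 and Pfkfb4, Aldoa, Aldoc, Tpi1, Gapdh, Pgk1, Pgam1, the enolases Eno1, Eno2 and Eno3, Pkm, Ldha, Ldhb, the glucose transporters Slc2a1 and Slc2a3, the lactate transporters Slc16a1 and Slc16a3, the pyruvate dehydrogenase subunits Pdha1 and Pdhb, and the kinases Pdk1, Pdk2, Pdk3 and Pdk4. They are named by function, and the rule uses no measured value.

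RNA had been measured at E6.25 in epiblast (E), the source of the embryo itself, and in extra-embryonic tissue (ExE), which contributes to the placenta. Their genotype was wild type (wt), heterozygous (Tet1gt/wt, labelled Zwt) or homozygous (Tet1gt/gt, labelled ZZ) for a gene trap in Tet1, an enzyme that oxidises 5-methylcytosine in DNA, and the study asked what TET1 does in each lineage. There were 4 libraries for each tissue and genotype except homozygous ExE, which had 3, and each library was a pool of lysates from at least 6 embryos of 2 to 3 litters that had been genotyped after collection. A pool thus averages embryos, and the p-values below measure the spread between pools. The labels give no strain or sex. Levels are given as CPM, counts scaled to a common library total (the TMM-scaled total of each library), and a level per kilobase (CPM per kb of transcript) is used wherever genes are set side by side.

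Glycolysis turns glucose into pyruvate in the cytosol. Hexokinase traps glucose as glucose 6-phosphate, phosphofructokinase commits it to breakdown, and lactate dehydrogenase converts pyruvate and lactate into each other. Most steps are served by paralogs that differ in regulation and tissue. Pyruvate dehydrogenase kinases (Pdk) switch off the complex that feeds pyruvate to the mitochondria. The epiblast of the early post-implantation embryo is known for active glycolysis, and glucose transporters and lactate exchange are known features of trophoblast.

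The start regions of 6 genes are shown because the tissue results below turn on them: a paralog that was higher in ExE (Hk1, Pfkp), one whose difference did not pass (Hk2, Ldha) or one that was lower in ExE (Ldhb, Pdk3). Each window runs from 250 bases before to 50 bases after a transcript start, 300 bases in all, from RefSeq on GRCm38.p6, 5′ to 3′ on the gene's strand. Capitals mark ACGTG on either strand (ACGTG or CACGT). These letters are a form of the core of the element bound by hypoxia-inducible factors. They are also contained in the E-box CACGTG bound by MYC and related factors. Other forms of that core were not searched for and are not marked. The windows lie at chr10:62340372-62340671 (minus strand, Hk1), chr6:82774405-82774704 (minus strand, Hk2), chr13:6648722-6649021 (minus strand, Pfkp), chr7:46845554-46845853 (plus strand, Ldha), chr6:142507908-142508207 (minus strand, Ldhb) and chrX:93832101-93832400 (minus strand, Pdk3).
Hk1: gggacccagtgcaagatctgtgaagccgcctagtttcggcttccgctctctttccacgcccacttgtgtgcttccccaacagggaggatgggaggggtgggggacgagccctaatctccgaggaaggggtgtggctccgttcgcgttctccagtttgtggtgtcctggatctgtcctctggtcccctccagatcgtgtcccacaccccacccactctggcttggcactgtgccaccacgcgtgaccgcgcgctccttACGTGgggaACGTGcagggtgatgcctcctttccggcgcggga
Hk2: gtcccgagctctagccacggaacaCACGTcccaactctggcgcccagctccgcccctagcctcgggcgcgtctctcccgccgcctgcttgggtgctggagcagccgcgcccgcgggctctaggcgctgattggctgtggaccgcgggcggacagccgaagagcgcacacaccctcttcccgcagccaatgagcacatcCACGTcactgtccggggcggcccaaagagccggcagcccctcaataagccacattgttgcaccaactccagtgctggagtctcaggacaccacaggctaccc
Pfkp: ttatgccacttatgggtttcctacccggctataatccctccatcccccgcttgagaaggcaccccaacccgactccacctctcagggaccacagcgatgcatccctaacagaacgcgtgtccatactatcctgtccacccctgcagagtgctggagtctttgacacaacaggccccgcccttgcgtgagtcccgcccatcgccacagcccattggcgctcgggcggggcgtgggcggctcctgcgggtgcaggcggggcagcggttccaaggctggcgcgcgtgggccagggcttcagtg
Ldha: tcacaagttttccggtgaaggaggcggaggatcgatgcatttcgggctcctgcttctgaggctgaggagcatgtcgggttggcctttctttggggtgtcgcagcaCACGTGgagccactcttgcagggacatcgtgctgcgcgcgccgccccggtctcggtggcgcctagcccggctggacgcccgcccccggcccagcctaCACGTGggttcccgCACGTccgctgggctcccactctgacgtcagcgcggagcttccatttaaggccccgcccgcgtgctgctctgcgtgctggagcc
Ldhb: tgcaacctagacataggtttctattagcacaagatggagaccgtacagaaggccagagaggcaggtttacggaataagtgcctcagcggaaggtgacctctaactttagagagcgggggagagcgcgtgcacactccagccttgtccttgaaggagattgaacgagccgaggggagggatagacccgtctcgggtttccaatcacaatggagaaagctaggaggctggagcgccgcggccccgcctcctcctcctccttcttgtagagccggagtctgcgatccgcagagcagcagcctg
Pdk3: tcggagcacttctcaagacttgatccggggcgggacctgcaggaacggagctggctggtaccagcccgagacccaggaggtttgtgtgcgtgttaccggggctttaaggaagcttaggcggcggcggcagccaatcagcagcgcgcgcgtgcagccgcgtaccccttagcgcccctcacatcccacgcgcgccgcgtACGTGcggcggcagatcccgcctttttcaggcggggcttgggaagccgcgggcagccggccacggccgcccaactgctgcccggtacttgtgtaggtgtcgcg

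The Ldha window held 3 marked stretches, of which the CACGTG stretches read ACGTG on both strands and so count as 2 matches each, 5 in all. Those of Hk1 and Hk2 held 2 marked stretches each and that of Pdk3 held 1. The Pfkp and Ldhb windows did not hold ACGTG on either strand, which leaves out other forms of the core. RefSeq windows were at hand for 31 of the 32 genes, 50 windows in all, and 22 of the 50 (44%) held ACGTG on either strand. Among all 32851 windows 19.6% held it. The genes' windows are also richer in CpG, with a median of 17.5 CpGs against 7 in all windows. Among windows with at least 17.5 CpGs, 16 of 25 windows of these genes and 28.9% of 9764 windows overall held the motif. A match is a description of the sequence and not a site. The second RefSeq starts of Hk1 (chr10:62379859-62380158) and Ldha (chr7:46846832-46847131) are not shown, and their windows held no match.

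Total counts per library ran from 4912215 to 9494814, and the limit set by a count of 0 (3 counts) lay between 0.312 and 0.681 CPM depending on the library. Such floors cover counting error only. Tet1 itself stood at 127 to 197 CPM in wt E, 66.0 to 148 in heterozygous E and 54.9 to 112 in homozygous E, and at 77.0 to 110, 39.4 to 57.2 and 21.5 to 37.7 CPM in the same order in ExE. Of 10 epiblast markers 7 were lower in wt ExE than in wt E, and 11 of 11 markers of extra-embryonic ectoderm were higher (edgeR adjusted p under 0.05). Among all genes tested, 7.98% were lower and 9.28% higher. Of other lists, 1 of 3 tested markers of ectoplacental cone and giant cells and 2 of 3 of blood were higher, 1 of 7 of parietal endoderm was higher and 2 lower, and 1 of 6 of maternal decidua was lower. ExE wt pool 1 had the highest mean of epiblast markers among ExE libraries, 6.67 on the log2 CPM scale against 3.72 to 6.07 in the other ExE libraries. The mean of extra-embryonic ectoderm markers was 6.84 to 7.59 in ExE and 0.71 to 5.08 in E, highest in heterozygous E pool 4. E wt pool 1 had a mean of visceral endoderm markers of 5.59, against 0.97 to 2.59 in the other wt E pools, -0.27 to 1.03 in heterozygous E and 0.95 to 4.29 in homozygous E. In 3 libraries, heterozygous E pool 4, homozygous E pool 3 and homozygous ExE pool 3, levels depended on transcript length and GC content more than in the rest, with shorter and more GC-rich transcripts higher. The slope on log2 transcript length was -0.30 to -0.24 against -0.07 to 0.16 in the other 20 libraries. Homozygous ExE pool 3 also stood apart in its summed maternal decidua markers, at 263 CPM against 3.32 to 48.3 CPM in the other 22 libraries. Its summed epiblast markers, at 2698 CPM, exceeded the 1941 CPM or less of the other ExE libraries, and its TMM factor of 0.897 was the lowest. The part of these values in the Slc2a3, Pfkp, Pdk1 and Pdk3 levels of that pool, given below, was not tested.

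The 32 genes together took 2.08% to 3.16% of the counts of a library. Per kilobase, the order in wt E was led by Pkm, the pyruvate kinase that makes pyruvate, at 2467 ± 189 CPM per kb (SD, n = 4), followed by Ldha at 2256 ± 217, Gapdh at 2007 ± 253, Aldoa at 1554 ± 196, Pgam1 at 1018 ± 88.2 and Pgk1 at 719 ± 103. The neighbours Pkm and Ldha, and Ldha and Gapdh, differed by no more than their spread over pools. Wt ExE had the same 6 genes at the top, with Pkm at 2391 ± 191, Gapdh at 2137 ± 425, Ldha at 1968 ± 339 and Aldoa at 1883 ± 311 CPM per kb, and the last 3 again within their spread. This order takes the 32 rows singly and leaves out Eno1b, a copy of Eno1 described below. Summed with Eno1b, the enolase rows stood at 3019 ± 275 CPM per kb in wt E and 3389 ± 395 in wt ExE (SD, n = 4 each). Both sums lay above the level of Pkm. At the other end of the order in wt E were Eno2, Pfkfb4 and Pdk4. Pdk4 had 0 counts in all 4 wt ExE pools and in 3 of 4 wt E pools, and no fold is given for it.

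**Figure D1:**
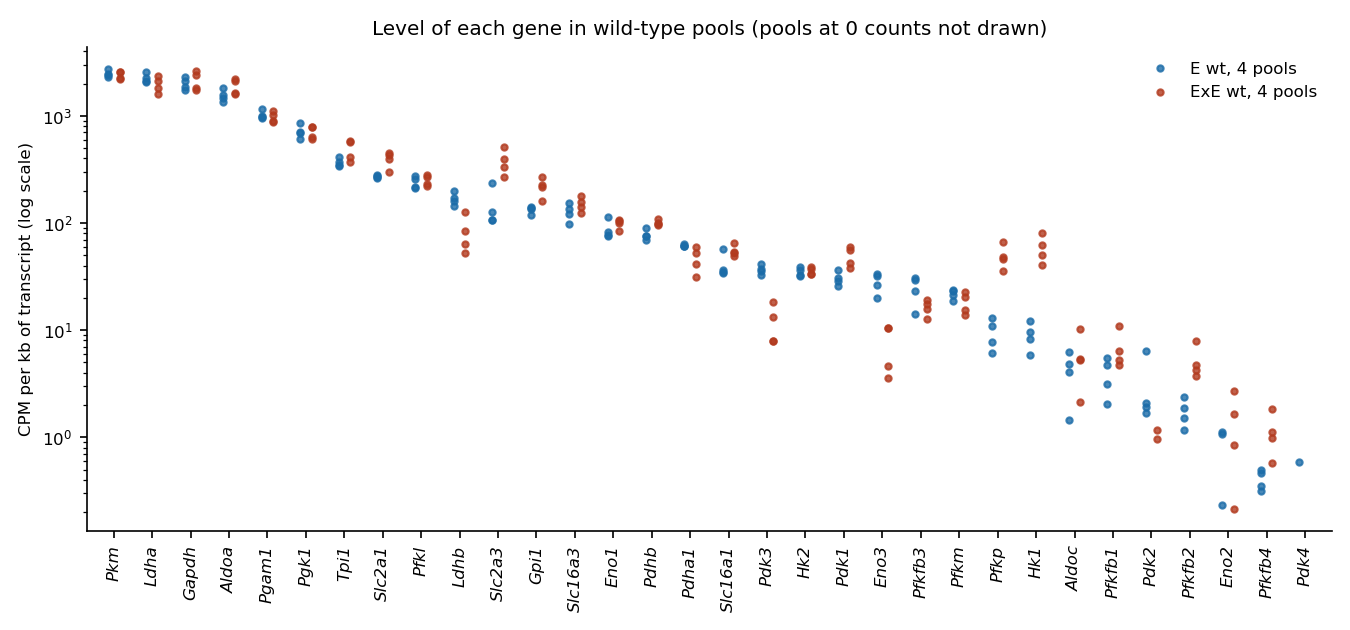
Level of each gene in the 4 wt E and 4 wt ExE pools, in CPM per kb of transcript on a log axis, 1 point per pool, with genes in order of their mean in E. Among the genes drawn, Pkm, Ldha, Gapdh and Aldoa stand at the top in both tissues. Eno1b, a copy of Eno1 that took most of their joint counts, is not drawn. Hk1 and Pfkp lie higher in every ExE pool than in any E pool, and Eno3, Ldhb and Pdk3 lower.

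Against this common backbone, wt ExE differed from wt E at defined steps. Hk1, Gpi1, Pfkp, Pfkfb2, Slc2a1 and Slc2a3 were higher in ExE, and Eno3, Ldhb and Pdk3 were lower. In such tissue pools, fewer cells of a type and less RNA per cell cannot be told apart. These 9 of 32 genes (edgeR quasi-likelihood test, adjusted p under 0.05 over all genes) compare with 17.3% of all 13595 genes tested, 9.28% higher and 7.98% lower. The median log2 fold change of the 32 genes was 0.21, against -0.01 for all genes. E and ExE pools of 1 number come from the same litters in 3 of 4 pools, without the labels saying which, so that some pairs may not share litters. With the pool number as a replicate block, in the 20 libraries that form 10 pairs, 15 of 32 genes passed against 26.2% of all genes. The same 20 libraries without the block gave 8 genes (18.1% of all genes), the 9 without Pfkfb2 (adjusted p = 0.0535). With the block Aldoa, Tpi1, Slc16a1, Slc16a3, Pdha1, Pdhb and Pdk1 passed beside these 8. Without the 3 libraries with steep length slopes, none of them wt, 14 genes passed, against 26.3% of all genes, adding Tpi1, Slc16a1, Pdha1, Pdhb and Pdk1 to the 9 (edgeR adjusted p = 0.0369, 0.0488, 0.0315, 0.0219 and 0.00358). Without ExE wt pool 2 only 5 passed, against 11.1% of all genes.

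The tissue difference was measured separately in each genotype, from libraries that the 3 comparisons do not share. In heterozygous embryos 11 of 32 genes passed (27% of all genes, 12% higher and 14.9% lower), and in homozygous embryos 8 of 32 (16.8% of all genes, 9.12% higher and 7.66% lower). With the replicate block, from which heterozygous E pool 4, heterozygous ExE pool 1 and homozygous E pool 2 drop out because they have no partner, these counts were 15 (31.1% of all genes) and 11 (21.4%), while the same libraries without the block gave 10 (24.4%) and 6 (14%). Without the 3 libraries with steep length slopes they were 14 (35.6%) and 11 (20%). The heterozygous genes gained without them were Gpi1, Tpi1 and Pdha1 (edgeR adjusted p = 6.44e-04, 0.0182 and 0.00199) and the homozygous ones Pfkfb2, Slc2a1 and Pdk1 (0.0393, 0.0252 and 0.00387). Hk1, Pfkp and Slc2a3 were higher and Eno3, Ldhb and Pdk3 lower in all 3 genotypes, 6 of 32 genes, where 10.5% of all genes passed in 1 direction in all 3 (5.72% higher and 4.77% lower). The homozygous calls rest on few libraries. Those of Slc2a3, Ldhb, Pdk3 and Pdhb were lost without ExE pool 1 (edgeR adjusted p = 0.122, 0.0935, 0.177 and 0.121). That of Slc2a3 was also lost without E pool 4 (0.0566) or ExE pool 4 (0.0786), and that of Pdk3 without E pool 1 (0.0823), E pool 2 (0.0574) or ExE pool 4 (0.0556). The homozygous Gpi1 call (0.69 ± 0.21, adjusted p = 0.0294) was lost without any of E pools 1, 2 and 4 and ExE pool 3 (0.0674, 0.0775, 0.0921 and 0.158). The pools did not overlap for 14 of 32 genes in wt (28% of all genes), 12 in heterozygous (29.7%) and 9 in homozygous embryos (23.3%). The sign of the difference was the same in all 3 genotypes for 26 of the 32 genes, and for 9359 of all 13595 genes tested.

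**Figure D2:**
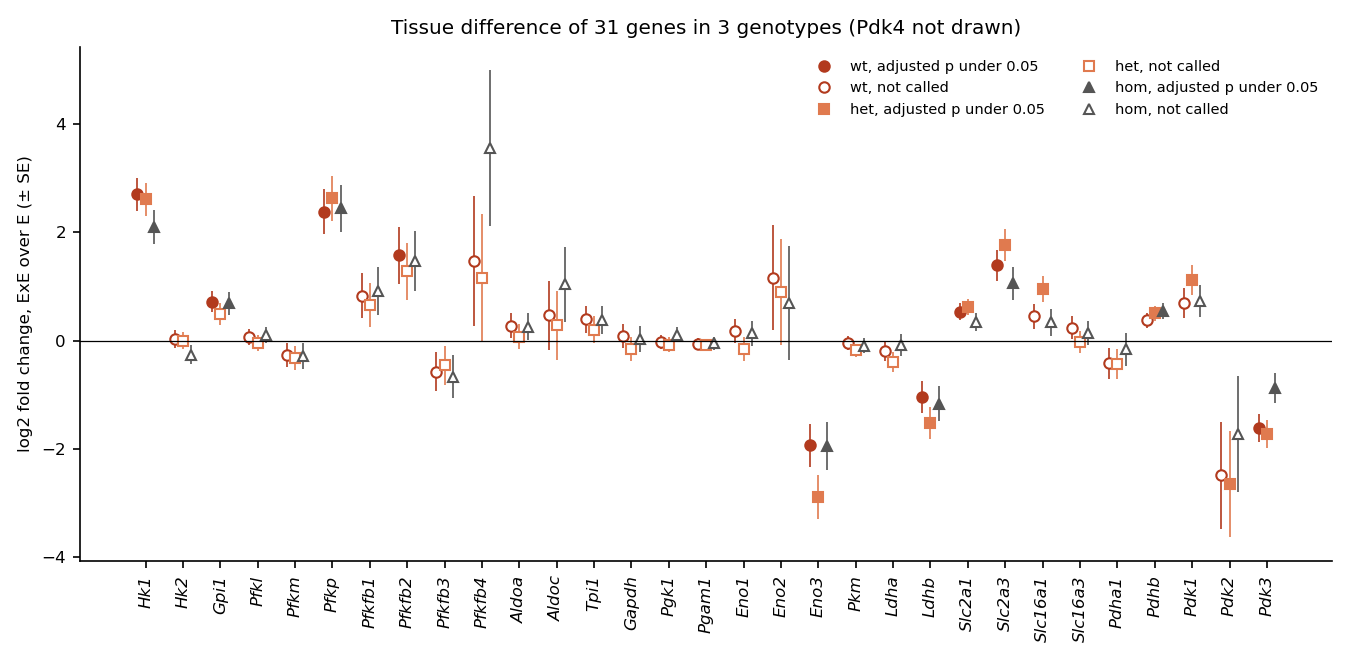
Log2 fold change of ExE over E with its SE for 31 genes in wt, heterozygous (het) and homozygous (hom) embryos, with filled symbols for an edgeR adjusted p under 0.05. Hk1 and Pfkp lie above 2 and Eno3 at about -1.9 or lower in each genotype, while Pkm, Pgk1 and Pgam1 lie near 0.

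Glucose enters through the facilitative transporters GLUT1 (Slc2a1) and GLUT3 (Slc2a3), the latter known for its high affinity. Slc2a3 (chr6:122727809-122801640) read 929, 422, 502 and 421 CPM in wt E pools 1, 2, 4 and 5 and 1327, 2010.1, 1061 and 1577 CPM in the ExE pools of the same numbers. The groups did not overlap, and E wt pool 1, with the high visceral endoderm markers, was the highest of the E pools. Of 19 visceral endoderm markers 17 were lower in wt ExE than in wt E (median log2 fold change -1.44), and 0 passed edgeR's test, with 2 at an unadjusted p under 0.05 against 30.4% of all genes. In homozygous embryos 16 of 19 were lower (median -2.52), with 9 at an unadjusted p under 0.05 against 30.4% of all genes, and 1 passed, higher in ExE. For Slc2a3 in wt embryos the log2 fold change was 1.39 ± 0.29 (SE, 2.63-fold higher in ExE, edgeR adjusted p = 0.00217), and 1.79 without both wt pools 1. Heterozygous E pools 2, 3, 4 and 5 had 389, 452, 353 and 511 CPM and heterozygous ExE pools 1, 2, 3 and 5 had 1368, 1296, 1668 and 1482 CPM. Homozygous E pools 1, 2, 3 and 4 had 708, 512, 342 and 436 CPM and homozygous ExE pools 1, 3 and 4 had 1355, 512 and 1255 CPM. The heterozygous groups stood apart, while homozygous ExE pool 3, a library with a steep length slope, lay within the E range and the other homozygous ExE pools above it. The log2 fold changes were 1.77 ± 0.29 and 1.06 ± 0.30 (edgeR adjusted p = 1.22e-04 and 0.0204).

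Slc2a1, the transporter present in most cells, read 854, 898, 915 and 871 CPM in the wt E pools and 965, 1466, 1415 and 1285 CPM in the wt ExE pools. Each ExE pool was higher than each E pool, by 0.54 ± 0.15 on the log2 scale (edgeR adjusted p = 0.0193), a call that was lost without ExE wt pool 2 (adjusted p = 0.0742) or pool 4 (0.0576). In heterozygous embryos the difference was 0.62 ± 0.15 (edgeR adjusted p = 0.00459) and in homozygous embryos 0.34 ± 0.17 (edgeR adjusted p = 0.164), which did not pass. Per kilobase, Slc2a3 made up 33.7 ± 9.16% of the 2 transporters in wt E and 48.6 ± 7.10% in wt ExE (SD, n = 4 each).

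Such within-family shares were computed for 19 paralogs in each library and compared between tissues with an exact permutation test, 2-sided, in which tissue labels were exchanged within each genotype. The families were chosen with earlier results known, and a share restates the levels above in relative terms. Of the 19 shares, 16 differed between E and ExE at an adjusted p under 0.05 over the 19. Shares of a family sum to a fixed total, so a change in a single paralog moves the others, and the 16 are not independent results. The share of Slc2a3 differed by 14.5 points over all genotypes (exact permutation p = 6.24e-04, adjusted p = 9.12e-04), and with the wt libraries alone its adjusted p was 0.0776. The smallest p that the 4 against 4 wt libraries can give is 0.0286.

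The hexokinase step showed the largest paralog difference among the shares. Hk1 (chr10:62268855-62379908), a widely expressed hexokinase that binds mitochondria, read 22.8, 37.0, 47.2 and 31.8 CPM in wt E pools 1, 2, 4 and 5 and 156, 313, 193 and 242 CPM in the matching ExE pools. All ExE pools were above all E pools, with ExE pool 1, the one with the highest mean log2 CPM of epiblast markers, the lowest of the ExE pools. The log2 fold change was 2.70 ± 0.31 (6.51-fold, edgeR adjusted p = 1.80e-05). Heterozygous pools read 20.7, 42.8, 49.1 and 26.5 CPM in E and 184, 192, 223 and 252 CPM in ExE, and homozygous pools 52.6, 23.2, 47.7 and 29.3 CPM in E and 141, 190.4 and 163 CPM in ExE. The lowest ExE library of any genotype, at 141 CPM, was above the highest E library, at 52.6 CPM. The log2 fold changes were 2.61 ± 0.31 and 2.11 ± 0.32 (edgeR adjusted p = 4.29e-06 and 1.98e-04).

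Hk2 (chr6:82725025-82774454), the inducible hexokinase known from muscle and tumours, did not differ by more than the spread of its pools. It read 203, 181, 175 and 215 CPM in wt E and 212, 185, 185 and 206 CPM in wt ExE, overlapping ranges differing by 0.03 ± 0.16 on the log2 scale (edgeR adjusted p = 0.937). Hk2 thus held 79.5 ± 6.12% of hexokinase transcript per kilobase in wt E and 38.8 ± 8.04% in wt ExE. Over all genotypes E libraries lay between 63.1% and 87.8% and ExE libraries between 29.2% and 48.7%, with no overlap (exact permutation p = 5.83e-06, the smallest the test can give, adjusted p = 1.58e-05). The summed hexokinase level per kilobase was 44.1 ± 2.23 CPM per kb in wt E and 94.4 ± 16.3 in wt ExE (SD, n = 4 each). Gpi1, the isomerase that acts on the product, was higher in wt ExE by 0.72 ± 0.20 (edgeR adjusted p = 0.0154), from 382 ± 30.0 to 629.8 ± 129 CPM (SD), and this call was lost without ExE wt pool 2 (adjusted p = 0.0676).

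**Figure D3:**
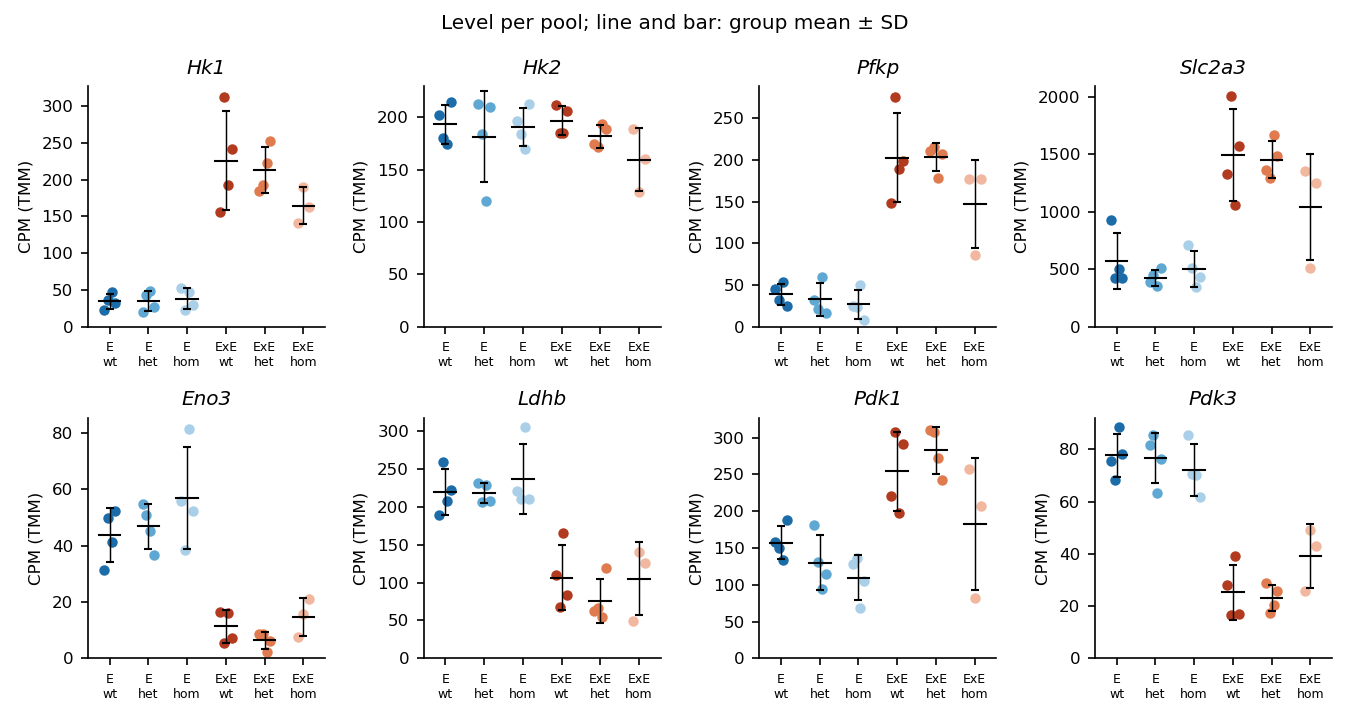
Level in CPM of 8 genes in each pool of the 6 groups, 1 point per pool, with a line at the group mean and a bar of 1 SD. Hk1 and Pfkp pools separate by tissue in every genotype, Hk2 pools overlap, and Eno3, Ldhb and Pdk3 pools are lower in ExE.

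Phosphofructokinase is a tetramer whose liver (Pfkl), muscle (Pfkm) and platelet (Pfkp) forms differ in their regulation. Pfkp (chr13:6579768-6648777) read 45.0, 32.04, 53.4 and 25.1 CPM in wt E pools 1, 2, 4 and 5 and 148, 275, 189 and 199 CPM in the ExE pools. The ranges were far apart, and the log2 fold change was 2.38 ± 0.42 (5.22-fold, edgeR adjusted p = 5.98e-04). Heterozygous pools read 32.5, 21.9, 60.1 and 16.8 CPM in E and 211, 216, 179 and 207 CPM in ExE, and homozygous pools 24.7, 24.1, 50.6 and 8.63 CPM in E and 178, 85.8 and 178 CPM in ExE. The groups stood apart in each genotype, with homozygous ExE pool 3 the lowest ExE library, and the log2 fold changes were 2.63 ± 0.42 and 2.45 ± 0.44 (edgeR adjusted p = 9.66e-05 and 8.81e-04).

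Pfkl remained the main form of the enzyme in both tissues, at 812, 1028, 958 and 788 CPM in wt E and 832, 1050.4, 1002 and 868 CPM in wt ExE. These ranges overlap (log2 fold change 0.07 ± 0.14, edgeR adjusted p = 0.815), as do those of Pfkm, at 60.6, 66.1, 53.9 and 67.8 CPM in E and 39.6, 58.4, 65.0 and 44.0 CPM in ExE (-0.26 ± 0.22, adjusted p = 0.468). Per kilobase, Pfkp held 3.46 ± 1.09% of the family in wt E and 15.2 ± 2.32% in wt ExE, Pfkl 88.5 ± 1.27% and 79.2 ± 2.25%, and Pfkm 8.05 ± 1.40% and 5.60 ± 0.755% (SD, n = 4 each). Over all genotypes these shares had adjusted p = 1.58e-05, 1.58e-05 and 0.00112 by the exact permutation test. With the wt libraries alone that of Pfkm did not pass (adjusted p = 0.0776).

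The Pfkfb enzymes make and remove fructose 2,6-bisphosphate, an activator of phosphofructokinase. Pfkfb2 (chr1:130689182-130729253) had low levels, 3.29, 2.64, 2.03 and 4.14 CPM in wt E and 6.60, 13.8, 8.22 and 7.43 CPM in wt ExE. The groups did not overlap (1.57 ± 0.53, edgeR adjusted p = 0.0432), but the call was lost with the replicate block (adjusted p = 0.0829) and without any 1 of 7 of the 8 wt libraries, up to 0.148 without ExE pool 2, and the heterozygous and homozygous differences of 1.28 ± 0.53 and 1.48 ± 0.56 did not pass (adjusted p = 0.0768 and 0.0734). Pfkfb3, the form known to favour synthesis of the activator, read 31.3, 67.4, 51.8 and 65.3 CPM in wt E and 42.1, 35.2, 28.2 and 39.0 CPM in wt ExE, overlapping ranges differing by -0.58 ± 0.36 (edgeR adjusted p = 0.303). Relative to its family Pfkfb3 had 79.2 ± 8.60% in wt E and 55.6 ± 9.95% in wt ExE, and over all genotypes no ExE library reached the lowest E library (exact permutation adjusted p = 1.58e-05).

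The X-linked Pfkfb1 read 8.81, 10.2, 5.83 and 3.84 CPM in wt E and 9.84, 11.96, 20.6 and 8.78 CPM in wt ExE, which overlap. Its share was 13.5 ± 6.81% in E and 23.2 ± 9.63% in ExE, and the share of Pfkfb2 was 5.95 ± 2.33% and 17.3 ± 5.70% (adjusted p over all genotypes = 1.85e-04 and 1.71e-04, exact permutation test). With the wt libraries alone the Pfkfb1 share did not pass (adjusted p = 0.181). Pfkfb4 had only 13, 10, 9 and 11 counts in the wt E pools and 53, 18, 29 and 29 counts in the wt ExE pools, and its share, with adjusted p = 0.0350 by the exact permutation test, did not pass in the paired form of the test (0.0763). The summed level of the 4 genes per kilobase was 30.3 ± 7.28 CPM per kb in wt E and 29.4 ± 1.29 in wt ExE (SD, n = 4 each).

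Among the middle and lower steps, Aldoa, Tpi1, Gapdh, Pgk1, Pgam1 and Pkm did not pass the test in wt, while Eno3 and Ldhb, given below, did. Aldoa, the main aldolase, differed by 0.28 ± 0.24 on the log2 scale, Tpi1 by 0.39 ± 0.25, Gapdh by 0.09 ± 0.22, Pgk1 by -0.03 ± 0.13, Pgam1 by -0.06 ± 0.11 and Pkm by -0.05 ± 0.12 (wt ExE over wt E, ± SE), with edgeR adjusted p from 0.311 for Tpi1 to 0.914 for Pgk1. With the replicate block Aldoa (0.28 ± 0.07, adjusted p = 0.0136) and Tpi1 (0.37 ± 0.09, adjusted p = 0.00765) passed as higher in ExE. The genes Gapdh, Pgk1, Pgam1, Pkm, Ldha and Aldoa have close processed copies in the genome, and their values are uncertain to the extent that reads were shared with such copies. Aldoc, a brain-type aldolase, held 0.261 ± 0.109% of the aldolase transcript per kilobase in wt E and 0.296 ± 0.147% in wt ExE, a share that did not pass (adjusted p = 0.138, exact permutation test).

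**Figure D4:**
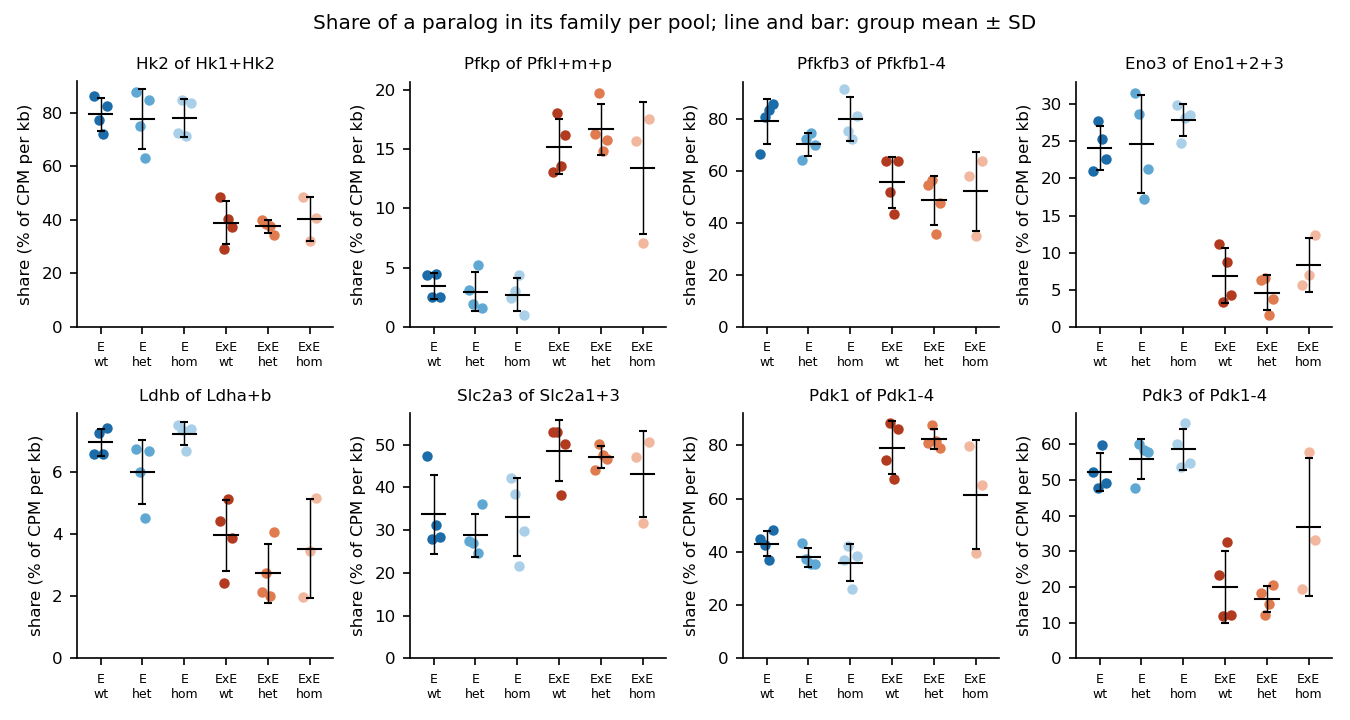
Share of a paralog in the summed CPM per kb of its family, in percent, for 8 paralogs in each pool of the 6 groups, 1 point per pool, with a line at the group mean and a bar of 1 SD. Hk2, Pfkp, Pfkfb3 and Eno3 shares do not overlap between any E and any ExE library, the Eno3 share being taken without Eno1b. Pdk1 and Pdk3 make up most of their family, so a rise in the share of Pdk1 goes with a fall in that of Pdk3.

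The enolase rows need care. The retrogene Eno1b took 95.5% to 97.3% of the counts of Eno1 and Eno1b together, a near-identical copy whose reads cannot be told apart from those of Eno1 with certainty. The Eno1 row and the shares within the enolase family are therefore uncertain. Eno3 (chr11:70657202-70662513), the muscle enolase, does not depend on that division for its own level. It read 31.2, 49.8, 41.4 and 52.3 CPM in wt E pools 1, 2, 4 and 5 and 16.4, 5.54, 16.2 and 7.29 CPM in the ExE pools. All ExE pools were lower, by -1.94 ± 0.40 on the log2 scale (3.84-fold, edgeR adjusted p = 0.00200). Heterozygous pools read 54.8, 50.9, 45.3 and 36.5 CPM in E and 8.56, 8.47, 2.35 and 5.98 CPM in ExE, and homozygous pools 55.9, 38.3, 81.5 and 52.1 CPM in E and 7.43, 15.9 and 20.9 CPM in ExE. Each genotype separated, with log2 fold changes of -2.89 ± 0.42 and -1.95 ± 0.44 (edgeR adjusted p = 3.02e-05 and 0.00483).

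Among the 3 enolase rows, Eno3 held 24.1 ± 2.98% in wt E and 6.88 ± 3.70% in wt ExE, with no overlap between any E and any ExE library (exact permutation adjusted p = 1.58e-05). This share leaves out Eno1b, with which Eno3 would be a far smaller part of enolase. The 3 rows summed to 116 ± 23.1 CPM per kb in wt E and 107 ± 9.72 in wt ExE. With Eno1b the sums were 3019 ± 275 and 3389 ± 395 CPM per kb (SD, n = 4 each). The Eno1 row itself read 152, 168, 157 and 230.4 CPM in wt E and 169.6, 202, 216 and 209.8 CPM in wt ExE, overlapping ranges differing by 0.17 ± 0.22 (edgeR adjusted p = 0.658), and the Eno1b row 4809, 5905, 5159 and 4927 and 5173, 6463, 6491 and 5390.1 CPM. The neuronal Eno2 had 5, 0, 22 and 21 counts in wt E and 5, 68, 20 and 34 counts in wt ExE. Its share had adjusted p = 0.0350 by the exact permutation test, and with Eno1b added to Eno1 that call was lost (adjusted p = 0.0940).

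Lactate dehydrogenase is a tetramer of A and B chains, of which the B chain is known for favouring lactate oxidation. Ldhb (chr6:142490249-142507957) read 189.7, 259.8, 207 and 222 CPM in wt E pools 1, 2, 4 and 5 and 109.5, 68.0, 166 and 83.4 CPM in the ExE pools. Every ExE pool was below every E pool (-1.04 ± 0.29, 2.06-fold lower, edgeR adjusted p = 0.0163), and the call was lost without E wt pool 2 (adjusted p = 0.0505), ExE wt pool 2 (0.0671) or ExE wt pool 5 (0.0567). Heterozygous pools read 231, 206, 229 and 208 CPM in E and 62.7, 66.5, 55.2 and 119.6 CPM in ExE, and homozygous pools 222, 211, 305 and 210.2 CPM in E and 49.8, 140.3 and 126 CPM in ExE. The tissues did not overlap in either genotype (-1.53 ± 0.30 and -1.17 ± 0.32, edgeR adjusted p = 5.48e-04 and 0.0156).

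Ldha, the A chain, read 3755, 4640.2, 4113 and 3871 CPM in wt E and 3289.8, 3827, 4288 and 2883 CPM in wt ExE. The ranges overlap and differ by -0.20 ± 0.19 on the log2 scale (edgeR adjusted p = 0.534). Ldhb made up 6.94 ± 0.442% of both chains per kilobase in wt E and 3.96 ± 1.15% in wt ExE, and over all genotypes the share differed by -3.31 points (exact permutation p = 5.83e-06, adjusted p = 1.58e-05). Ldha was thus the main chain in all 23 libraries.

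The monocarboxylate transporters MCT1 (Slc16a1) and MCT4 (Slc16a3) carry lactate across the membrane, MCT4 being known for export. Slc16a1 read 254, 151, 153 and 159.5 CPM in wt E and 289, 238, 217 and 233 CPM in wt ExE, where E pool 1 overlapped the ExE range. The difference of 0.45 ± 0.23 did not pass (edgeR adjusted p = 0.200), though with the replicate block it did (0.48 ± 0.13, adjusted p = 0.0156). In heterozygous embryos all ExE pools were higher, at 292, 342, 288 and 300.1 CPM against 189, 168, 94.8 and 179 CPM (0.95 ± 0.23, edgeR adjusted p = 0.00398), and in homozygous embryos the difference was 0.33 ± 0.25 (adjusted p = 0.385, and 0.0424 with the block). Slc16a3 differed by 0.24 ± 0.21 in wt (edgeR adjusted p = 0.481, and 0.0392 with the block), and its share of the 2 transporters, 75.6 ± 6.37% in wt E and 72.8 ± 4.36% in wt ExE, did not pass (adjusted p = 0.0616, exact permutation test).

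At the mitochondrial gate, the level estimates for Pdk3 and Pdk1, kinases that inhibit pyruvate dehydrogenase, lay in opposite directions between the tissues. The X-linked Pdk3 (chrX:93764607-93832201) read 75.6, 68.4, 88.4 and 78.1 CPM in wt E pools 1, 2, 4 and 5 and 28.2, 16.7, 39.0 and 16.9 CPM in the ExE pools. The ExE pools were all lower, by -1.62 ± 0.26 on the log2 scale (3.08-fold, edgeR adjusted p = 2.23e-04). Heterozygous pools read 81.7, 85.5, 63.4 and 76.3 CPM in E and 28.6, 17.4, 20.6 and 25.7 CPM in ExE, and homozygous pools 85.4, 70.7, 70.0 and 61.6 CPM in E and 25.7, 49.2 and 43.0 CPM in ExE. The groups stayed apart, with log2 fold changes of -1.74 ± 0.26 and -0.88 ± 0.28 (edgeR adjusted p = 4.18e-05 and 0.0323).

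Pdk1 (chr2:71873224-71903858), a known target of hypoxia-inducible factors, read 159, 149.6, 133 and 188 CPM in wt E and 220.4, 308, 197 and 292 CPM in wt ExE. The ExE pools were all higher, yet the difference of 0.69 ± 0.27 did not pass without the block (edgeR adjusted p = 0.0853) and passed with it (0.69 ± 0.13, adjusted p = 0.00224). Heterozygous pools read 181, 131, 93.9 and 115 CPM in E and 310.1, 307, 272 and 242 CPM in ExE (1.11 ± 0.27, edgeR adjusted p = 0.00430). Homozygous pools read 128, 137, 67.8 and 106 CPM in E and 258, 82.6 and 207 CPM in ExE, where pool 3, with its steep length slope, lay within the E range. The homozygous difference was 0.74 ± 0.29 (edgeR adjusted p = 0.0874), 0.78 ± 0.16 with the block (adjusted p = 0.00424) and 0.90 ± 0.21 without the 3 steep libraries (adjusted p = 0.00387).

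Among the 4 kinases per kilobase, Pdk1 held 43.1 ± 4.76% in wt E and 79.1 ± 9.90% in wt ExE, and Pdk3 52.3 ± 5.42% and 19.997 ± 9.99% (SD, n = 4 each). The shares differed over all genotypes by 35.4 and -31.2 points (exact permutation p = 1.17e-05 and 1.75e-05, adjusted p = 2.77e-05 and 3.69e-05). Because Pdk1 and Pdk3 make up most of the family, a rise in the share of Pdk1 goes with a fall in that of Pdk3. These p-values are thus not separate results. Homozygous ExE pool 3 again stood apart from the other ExE libraries, with shares of 39.6% for Pdk1 and 57.9% for Pdk3. Pdk2 had few counts, 33, 129, 28 and 32 in the wt E pools and 22, 0, 0 and 16 in the wt ExE pools, and its differences of -2.49 ± 0.99 in wt and -2.65 ± 0.99 in heterozygous embryos had edgeR adjusted p = 0.0884 and 0.0499, the latter lost with the block (0.107) and without any 1 of 6 of the 8 heterozygous libraries (0.0512 to 0.152). The summed kinase level was 70.2 ± 3.52 CPM per kb in wt E and 61.5 ± 5.59 in wt ExE (SD, n = 4 each).

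The subunits of the complex itself differed by smaller amounts. Pdhb read 135, 105, 115 and 115 CPM in wt E and 143, 147, 152 and 166 CPM in wt ExE, without overlap (0.37 ± 0.14, edgeR adjusted p = 0.0783, and 0.0283 with the block), and passed in heterozygous (0.50 ± 0.14, adjusted p = 0.0120) and homozygous embryos (0.54 ± 0.15, adjusted p = 0.0186). The X-linked Pdha1 differed by -0.42 ± 0.28 in wt (edgeR adjusted p = 0.336, and 0.0311 with the block). Its levels were 173, 175, 174 and 182 CPM in wt E and 169.5, 119, 88.9 and 148 CPM in wt ExE, every ExE pool being lower than every E pool.

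Genes around the pathway were counted in lists chosen with earlier results of these data known. Among all genes tested, 9.28% were higher and 7.98% lower in wt ExE by the same test. Of 9 tested partners of pyruvate entry 3 were higher in wt ExE: pyruvate carboxylase Pcx (2.24 ± 0.36, edgeR adjusted p = 2.51e-04) and the mitochondrial pyruvate carrier genes Mpc2 (2.02 ± 0.49, edgeR adjusted p = 0.00629) and Mpc1 (2.17 ± 0.67, edgeR adjusted p = 0.0285). Of 11 genes of glycogen and gluconeogenesis 2 were higher, glycogen synthase Gys1 (1.58 ± 0.33, edgeR adjusted p = 0.00228) and Ugp2 (1.34 ± 0.30, edgeR adjusted p = 0.00353), which makes UDP-glucose, and 1 was lower, Pck2 (-1.24 ± 0.29, edgeR adjusted p = 0.00529), the mitochondrial PEP carboxykinase. Of 16 genes of the TCA cycle Idh3a was higher (0.48 ± 0.14, edgeR adjusted p = 0.0196) and the cytosolic malate dehydrogenase Mdh1 was lower (-0.70 ± 0.14, edgeR adjusted p = 0.00150). Of 8 genes of the pentose phosphate pathway 0 passed edgeR's test, with 2 at an unadjusted p under 0.05 (30.4% of all genes), the smallest p being that of G6pdx (-0.48 ± 0.20, edgeR adjusted p = 0.103). Of 18 other paralogs of the pathway 1 passed, Adpgk (0.65 ± 0.17, edgeR adjusted p = 0.0131), which phosphorylates glucose with ADP.

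Of 23 genes linked to hypoxia-inducible factors 8 were higher and 1 lower in wt ExE by edgeR's test (9.28% and 7.98% of all genes). Of the 23 estimates 15 were above 0 and 8 below. The smallest p-values among the higher genes were those of the transcription factor Bhlhe40 (4.13 ± 0.62, edgeR adjusted p = 1.45e-04), Ankrd37 (2.04 ± 0.47, edgeR adjusted p = 0.00434) and Higd1a (1.38 ± 0.36, edgeR adjusted p = 0.0104), and the largest fold change was that of Adm (4.37 ± 1.48, edgeR adjusted p = 0.0441), which encodes adrenomedullin. The lower gene was Mxi1 (-1.07 ± 0.31, edgeR adjusted p = 0.0209), which encodes an antagonist of MYC. The list's median log2 fold change was 0.60, against -0.01 for all genes. In heterozygous embryos 8 of its genes were higher and 1 lower (12% and 14.9% of all genes). In homozygous embryos 6 were higher and 1 lower (9.12% and 7.66%). Of 9 genes for MYC and other regulators 0 were higher and 3 lower in wt ExE: Lin28b (-2.32 ± 0.72, edgeR adjusted p = 0.0292), Lin28a (-0.77 ± 0.19, edgeR adjusted p = 0.00858), both of which bind the precursor of let-7, and Mycn (-0.62 ± 0.17, edgeR adjusted p = 0.0158).

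The study's own question, the effect of the Tet1 gene trap, was then put to the 32 genes within each tissue. None passed edgeR's test in homozygous against wt E (2 genes, 0.0161% of 12405 genes tested, passed overall; 1 of the 32 had an unadjusted p under 0.05, against 4.19% of all genes). In heterozygous against wt E 0 of 32 passed (0% of all genes, 0 of 32 unadjusted against 2.4% of all genes), in homozygous against wt ExE 0 of 31 (0% of 12355 genes, 0 unadjusted against 7.57% of all genes), and in heterozygous against wt ExE 0 of 31 (0% of all genes, 1 unadjusted against 4.13%). The pools did not overlap for 1 of 32 genes in homozygous against wt E (4.41% of all genes), and for 0 genes in heterozygous against wt E (2.85%), homozygous against wt ExE (5.87%) and heterozygous against wt ExE (3.84%). DESeq2 and limma-voom also called 0 of these genes in each of the 4 comparisons, against 0.0322% to 0.146% and 0% to 0.0161% of all genes. The estimate lay within 0.5 of 0 on the log2 scale for 27 and 29 of 32 genes in E, homozygous and heterozygous, and for 25 and 28 of 31 genes in ExE. The homozygous and heterozygous comparisons of a tissue share the wt pools. In each of the 4 comparisons edgeR called 0 genes lower, so Tet1 itself was not called. Yet every homozygous pool had less Tet1 than every wt pool of its tissue. The absence of calls among the 32 genes thus does not show that the trap left them unchanged.

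In homozygous E the smallest p-values upward were those of Eno3 (0.39 ± 0.25) and Aldoa (0.21 ± 0.22), and downward those of Pfkfb4 (-2.57 ± 1.15) and Pdk1 (-0.51 ± 0.24), each with an edgeR adjusted p of 0.961. Pfkfb4 had 1, 0, 0 and 5 counts in the homozygous pools against 13, 10, 9 and 11 in wt, the gene without overlap, at a level near the floor. For Pdk1, 1 of 4 homozygous pools lay within the wt range, at 128, 137, 67.8 and 106 CPM against 159, 149.6, 133 and 188 CPM. Aldoa had 2546, 2370.2, 4216 and 1980.4 CPM in homozygous and 2278, 2812, 2441 and 2097 CPM in wt E, and its sign turned without homozygous pool 3 (-0.06). In heterozygous E the estimates with the smallest p were those of Pfkfb1 (0.85 ± 0.48), Ldha (0.27 ± 0.18), Slc2a3 (-0.41 ± 0.27) and Pdk1 (-0.27 ± 0.24), each with an edgeR adjusted p of 0.982. Ldha read 4457, 4501, 6717 and 4063 CPM in heterozygous pools 2, 3, 4 and 5, where pool 4 has a steep length slope, and Pfkfb1 10.0, 24.1, 5.40 and 12.1 CPM.

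In homozygous ExE, Pdk3 had the smallest p upward (0.63 ± 0.33, edgeR adjusted p = 0.711), followed by Ldha (0.16 ± 0.17, adjusted p = 0.921), and Hk1 (-0.47 ± 0.23, adjusted p = 0.683) and Slc2a3 (-0.52 ± 0.30, adjusted p = 0.734) the smallest downward. The pools of Pdk3, Hk1 and Slc2a3, given above, overlap between the genotypes. Ldha read 3424, 5462 and 3234 CPM in the homozygous ExE pools, and without pool 3 its sign turned (-0.10). In heterozygous ExE, Pfkfb1 (0.70 ± 0.31), Slc16a1 (0.34 ± 0.20), Eno3 (-0.82 ± 0.50) and Ldhb (-0.47 ± 0.34) came closest, all with an edgeR adjusted p of 0.9998, and Pfkfb1 read 23.5, 20.2, 16.0 and 22.4 CPM there against 9.84, 11.96, 20.6 and 8.78 CPM in wt, with overlap. The difference between tissues in the homozygous effect passed for 0 of 32 genes (0% of 13595, with 0 of 32 and 3.06% of all genes at an unadjusted p under 0.05). Its smallest p was that of Pdk3, 0.75 ± 0.37 on the log2 scale (edgeR adjusted p = 0.9999).

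**Figure D5:**
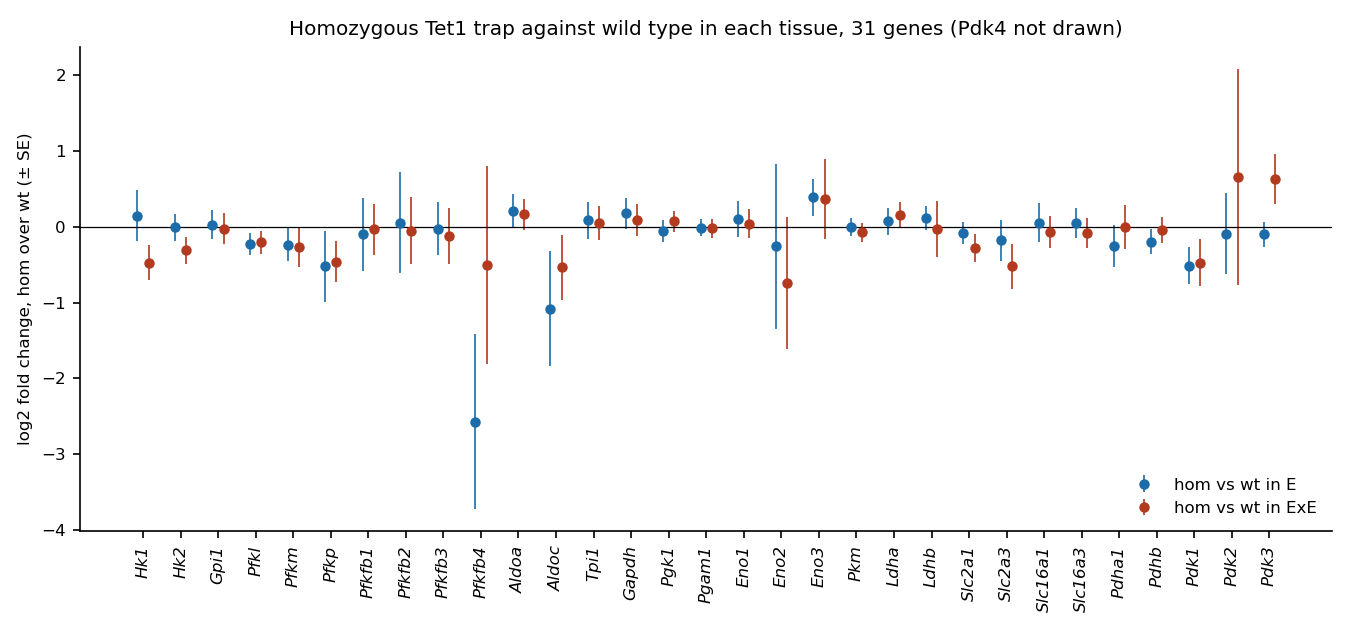
Log2 fold change of homozygous over wt pools with its SE for 31 genes, in E and in ExE. Most estimates lie within 0.5 of 0 in both tissues, and the long bars belong to genes with few counts such as Pfkfb4, Eno2 and Pdk2.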

How the data were processed

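Poly(A) RNA of 23 pools was amplified with a SMARTer low-input kit and sequenced as 75-base single-end reads. Per the labels' protocols, cutadapt 1.7.1 and FastX 0.0.13 trimmed the reads, and those under 35 bases, poly(A), ambiguous or of low quality were removed. TopHat2 2.0.12 and the build mm10 (GRCm38) are named per the submitters' processing notes. For the counting program, its annotation and any use of strand, the sources used here give nothing. The values deposited by the authors are raw counts per gene symbol. Because the cDNA was amplified and carries no molecular identifiers, floors cover counting error only. Within-group libraries differed beyond counting noise (chi-square per degree of freedom from 12.3 to 118 over 33 pairs), and none was counted as a repeat.

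Genes were kept by filterByExpr with a minimum count of 10 and a minimum total of 15, TMM scaling was applied, and edgeR 4.0.16 (R 4.3.3) quasi-likelihood tests were fitted across all genes, with Benjamini-Hochberg adjustment and a threshold of 0.05. Tissue and interaction contrasts came from 1 fit of all 23 libraries, and genotype contrasts from 1 fit per tissue. The SE is the log2 fold change over the root of F. Paralog shares are CPM per kb within a family, with the length of the transcript of longest coding sequence (GENCODE M21). Named genotype values are those with the smallest p-values in each direction. Symbols matched the annotation for 23362 of 23725 lines, 827 of them through an older symbol. Scripts were tested on simulated data. Alternatives were DESeq2 1.42.0, limma-voom 3.58.1, RLE scaling, no filter, GC and length offsets, a visceral endoderm covariate, a replicate block, the same libraries without it (added after seeing the results), single-genotype fits and leaving out libraries. The genes and lists were chosen with earlier results of these data known.

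The labels tie E and ExE pools of 1 number to the same litters in 3 of 4 pools, so the replicate block pairs the tissue comparison. They do not say which 3, and all 10 same-numbered pairs were treated as pairs, some of which may not share litters. Deviations of the 10 same-numbered pairs correlated at -0.04 to 0.46 (median 0.07), with 3 over 0.1. Those 3 were all homozygous (0.15, 0.46 and 0.24 for pools 1, 3 and 4), and both libraries of pool 3 have steep length slopes. The wt pairs ran from -0.03 to 0.09, so their link by number is weak in these data. Deviations of 34 differently numbered pairs had a median of -0.02, with 2 over 0.1.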

Additional observations from a re-analysis of the deposited data

Results flagged for a closer look

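In 11 of 117 groups of 4 pools tested over 24 genes (groups with 3 pools at 0 were not tested), the highest or lowest pool stood far from the other 3 by Dixon's criterion, where chance alone gives about 1 in 20 groups. Of the 11, 6 involve 2 of the 3 libraries with steep length slopes. In heterozygous E pool 4, Aldoa stood at 4181 CPM (other pools 2333 to 2599), Eno1 at 281 CPM (154 to 175), Gpi1 at 597 CPM (385 to 391) and Ldha at 6717 CPM (4063 to 4501). In homozygous E pool 3, Ldha stood at 5938 CPM (3673 to 3802) and Ldhb at 305 CPM (210.2 to 222). The part of the libraries' length slopes in these values was not tested.

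In E wt pool 1, the pool with the high visceral endoderm markers, Slc2a3 stood at 929 CPM (others 421 to 502) and Slc16a1 at 254 CPM (151 to 159.5). Gpi1 was lowest in heterozygous ExE pool 2, at 489 CPM (661 to 672). Pdk2 stood at 14.2 CPM in E wt pool 2 (3.80 to 4.73). Pfkfb4 stood at 0.846 CPM in homozygous E pool 4 (0 to 0.112), which rests on 5 counts.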

How the results depend on the processing

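Of the 32 genes, 9 passed in wt, 11 in heterozygous and 8 in homozygous embryos between tissues (17.3%, 27% and 16.8% of all genes). In wt the count was 15 with the replicate block (26.2%) and 14 without the 3 libraries with steep length slopes (26.3%). It ran from 5 to 9 when 1 library was left out (11.1% to 18.6% of all genes), the lowest without ExE wt pool 2 (11.1%). In homozygous embryos it was 3 of 30 tested when only the homozygous libraries were fitted (8.19% of all genes). There it ran from 4 to 10 when 1 library was left out (9.3% to 20.2%), the lowest without ExE pool 1 (9.3%). The heterozygous count ran from 10 to 12 (22.1% to 28.8%). Pairing the tissues through the replicate block, in 20 libraries, gave 15 of 32 genes in wt, 15 in heterozygous and 11 in homozygous embryos (26.2%, 31.1% and 21.4% of all genes). The same 20 libraries without the block gave 8, 10 and 6 (18.1%, 24.4% and 14%), a setting chosen after seeing the data. Beside the values given with the results, the paired fit changed the calls of Gpi1, Aldoa, Tpi1, Ldha and Pdha1 in heterozygous embryos (now passing, Gpi1 also in the 20 libraries without the block) and of Tpi1 in homozygous embryos (now passing). Same-numbered pools of different genotypes have no stated link, and their deviations correlated at -0.35 to 0.20 over 16 pairs (median -0.01).

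Counts under other settings follow in wt, heterozygous and homozygous order, with the percent of all genes called in brackets. They were 11, 12 and 10 with DESeq2 (21.9, 30.7 and 21.8) and 10, 13 and 9 with limma-voom (22.8, 30.6 and 19.8). RLE scaling gave 9, 11 and 8 (17.3, 26.8 and 16.5), and no filter 8, 10 and 8 (11.6, 18.7 and 11.4). GC and length offsets gave 12, 13 and 9 (23.1, 33.4 and 23). The visceral endoderm covariate gave 7, 10 and 6 (15.6, 26.5 and 13.7). Of 505 tissue values of single genes recomputed under an alternative, 52 no longer passed and 0 reversed. Of 480 paralog shares recomputed, 28 no longer passed. The number of shares passing, 16 of 19, was 11 with the wt libraries alone, 17 with paired sign flips, 15 with Eno1b added to Eno1 and 14 to 17 with 1 library left out.

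The genotype estimates that reversed were all far from the threshold. Aldoa in homozygous against wt E became -0.0615 without the 3 steep libraries and ran from -0.0599 (without homozygous pool 3) to 0.34 when 1 library was left out. Slc2a3 in heterozygous against wt E became 0.17 with the visceral endoderm covariate. Ldha in homozygous against wt ExE became -0.10 without the 3 steep libraries, which there means without homozygous pool 3, and reached 0.28 with another library left out. The cause was not tested. The other 263 of 268 such values kept their direction. Depth limits Pfkfb4, Eno2, Pdk2 and Pdk4, whose counts lie near 0 in many libraries.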
